A study of Mus musculus with 32 samples.

Results

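The desmosome genes described here are Dsg2, Dsc2, Jup, Pkp2, Pkp4, Dsp and Ppl, which are 7 of the 54532 genes counted in the kidney of mice given cisplatin. They were chosen from measured values of these same mice, after Dsp and Dsg2 had been seen to rise from Day 0. Each difference from Day 0 is therefore given for them as a description, with no p-value of a single member. How many of them the fits called there is given beside the share of all genes called, and again for other settings of the fits. Tests are given for comparisons between the sexes, between later days and of the response between the sexes. All 7 had enough counts to enter every comparison.

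Wild-type C57BL/6 mice, an inbred laboratory strain, aged 6 to 8 weeks, were studied in 8 groups of 4, which were male and female mice of Day 0 and of the second, the third and the fifth day after injection (Day 2, Day 3, Day 5). To cause acute kidney injury (AKI), the mice received cisplatin, a platinum-based chemotherapy that is toxic to kidney tubule cells, once at 20 mg/kg into the peritoneal cavity. The study treated the Day 0 mice as healthy, which was followed here, although the sample labels name cisplatin as the treatment of the Day 0 female mice and no treatment for the Day 0 male mice. The comparisons ask how kidney transcripts changed over the days after injection and whether male and female mice differed.

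Reads counted on genes came to between 16502107 and 35961325 per library. Values are given as CPM (counts divided by the library size, which was scaled with TMM factors over the 32 libraries) or, where genes are compared with each other, as the FPKM deposited by the authors, which divide by gene length. Against its label, 4153 counts of Xist were found in the library labelled male Day 5 mouse 1, where Xist is a transcript of the inactive X chromosome of females, beside 387 counts of Y-linked genes, so values without it are given beside the results that rest on it. The other 3 male Day 5 libraries held 59 to 260 and male Day 0 libraries 0 to 242 counts of Xist, against 0 to 5 in male libraries of Day 2 and Day 3. Female Day 0 libraries held between 5 and 221 counts of Y-linked genes, whereas female libraries of the other days held 0. Transcripts of the mitochondrial genome took between 42.5% and 79.8% of the counts in male and between 9.30% and 77.9% in female Day 5 mice, against 4.49% to 24.0% at Day 0 and 4.87% to 14.03% at Day 2 and Day 3. The highest Day 0 shares were 24.0% in male and 19.7% in female mouse 4. All 8 marker genes of the proximal tubule, the main segment of the kidney cortex, were detected in every group. The RNA is bulk kidney RNA, in which fewer cells of a type and less RNA per cell cannot be told apart.

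Desmosomes are spot-like junctions that rivet neighbouring epithelial cells together and tie their keratin filaments into 1 network. Their transmembrane cadherins, the desmogleins and desmocollins, meet across the gap between cells, and inside the cell the armadillo proteins plakoglobin and the plakophilins connect the cadherin tails to desmoplakin, a plakin that holds the filaments. Simple epithelia such as the kidney tubule use desmoglein-2 and desmocollin-2 as their desmosomal cadherins, whereas the other desmogleins and desmocollins belong mainly to stratified epithelia such as the skin. Dsg2 and Dsc2 encode these cadherins, Jup encodes plakoglobin, Pkp2 encodes plakophilin-2, Pkp4 encodes a plakophilin relative also found at adherens junctions, Dsp encodes desmoplakin, and Ppl encodes periplakin, a plakin of epithelial cell borders.

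The stretches just before the start of Dsp, Jup and Pkp4, the 3 members matched in the RefSeq promoter table, are shown because Dsp stood well above its Day 0 level after cisplatin, whereas Jup and Pkp4, the most abundant members, differed from theirs by less. Each run is the 250 bases upstream of an annotated RefSeq start in GRCm38.p6, read on the strand of the gene, with capitals marking the searched motifs. Dsp lies at chr13:38151294-38198577 on the forward strand and its promoter covers chr13:38151044-38151293, Jup lies at chr11:100368958-100397763 on the reverse strand and its promoter covers chr11:100397791-100398040, and Pkp4 lies at chr2:59160850-59355208 on the forward strand with promoters at chr2:59160600-59160849 and chr2:59161619-59161868.
Dsp: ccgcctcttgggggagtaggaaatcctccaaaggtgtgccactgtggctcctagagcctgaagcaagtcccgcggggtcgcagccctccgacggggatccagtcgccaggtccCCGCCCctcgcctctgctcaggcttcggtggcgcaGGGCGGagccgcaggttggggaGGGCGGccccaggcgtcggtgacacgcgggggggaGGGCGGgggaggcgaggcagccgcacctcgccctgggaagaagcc
Jup: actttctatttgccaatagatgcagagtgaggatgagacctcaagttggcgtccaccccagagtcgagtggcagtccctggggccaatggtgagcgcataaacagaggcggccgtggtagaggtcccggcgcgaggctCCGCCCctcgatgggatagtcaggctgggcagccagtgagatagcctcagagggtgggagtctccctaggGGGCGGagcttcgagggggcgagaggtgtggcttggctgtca
Pkp4, first start: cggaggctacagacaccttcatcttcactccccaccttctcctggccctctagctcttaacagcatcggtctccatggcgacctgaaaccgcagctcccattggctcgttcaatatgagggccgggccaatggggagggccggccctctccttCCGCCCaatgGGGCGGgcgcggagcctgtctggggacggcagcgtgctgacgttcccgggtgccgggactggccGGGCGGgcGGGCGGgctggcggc
Pkp4, second start: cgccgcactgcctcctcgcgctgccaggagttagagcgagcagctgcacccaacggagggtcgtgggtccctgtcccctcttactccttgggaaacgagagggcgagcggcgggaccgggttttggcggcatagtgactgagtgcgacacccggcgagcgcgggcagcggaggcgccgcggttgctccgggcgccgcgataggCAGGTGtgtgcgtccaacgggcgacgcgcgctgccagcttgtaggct

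The GC box (GGGCGG, either strand), which binds Sp family factors, had 4 matches before Dsp, 2 before Jup, 4 before the first start of Pkp4 and 0 before the second. It was found in 32.7% of the 32851 mouse promoters of the same length. The AP-1 motif (TGANTCA, found in 6.75% of all promoters) and the TEAD motif (GGAATG, in 12.6%) had no match in these 4 windows. The E-box CAGGTG, to which Snail and Zeb repressors bind, was found in 17.2% of all promoters and here only before the second start of Pkp4. The G and C content was 72.4% for Dsp, 62% for Jup and 68.4% and 70% for Pkp4, against a median of 52.4% over all promoters. A match describes letters and was not tested as a binding site.

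Per unit of gene length, the armadillo genes Pkp4 and Jup were by far the most abundant members and the cadherins the least. Mean FPKM (n = 4 per group) decreased in the order Pkp4, Jup, Pkp2, Dsp, Ppl, Dsg2 and Dsc2 in 7 of the 8 groups, and in male Day 5 mice Dsp stood above Pkp2. Single mice ranged from 28.5 to 55.8 FPKM for Pkp4, from 18.8 to 54.9 for Jup and from 3.38 to 6.96 for Pkp2. Dsp ranged from 1.21 to 6.74 FPKM and Ppl from 0.627 to 7.05. Dsg2 ranged from 0.308 to 2.20 and Dsc2 from 0 to 0.675 FPKM. Jup lay above the next gene of the order without overlap in every group. The neighbours Pkp2 and Dsp separated only at Day 0, where all Pkp2 values of both sexes lay above those of Dsp, and their ranges overlapped in all 6 groups after cisplatin.

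**Figure D1:**
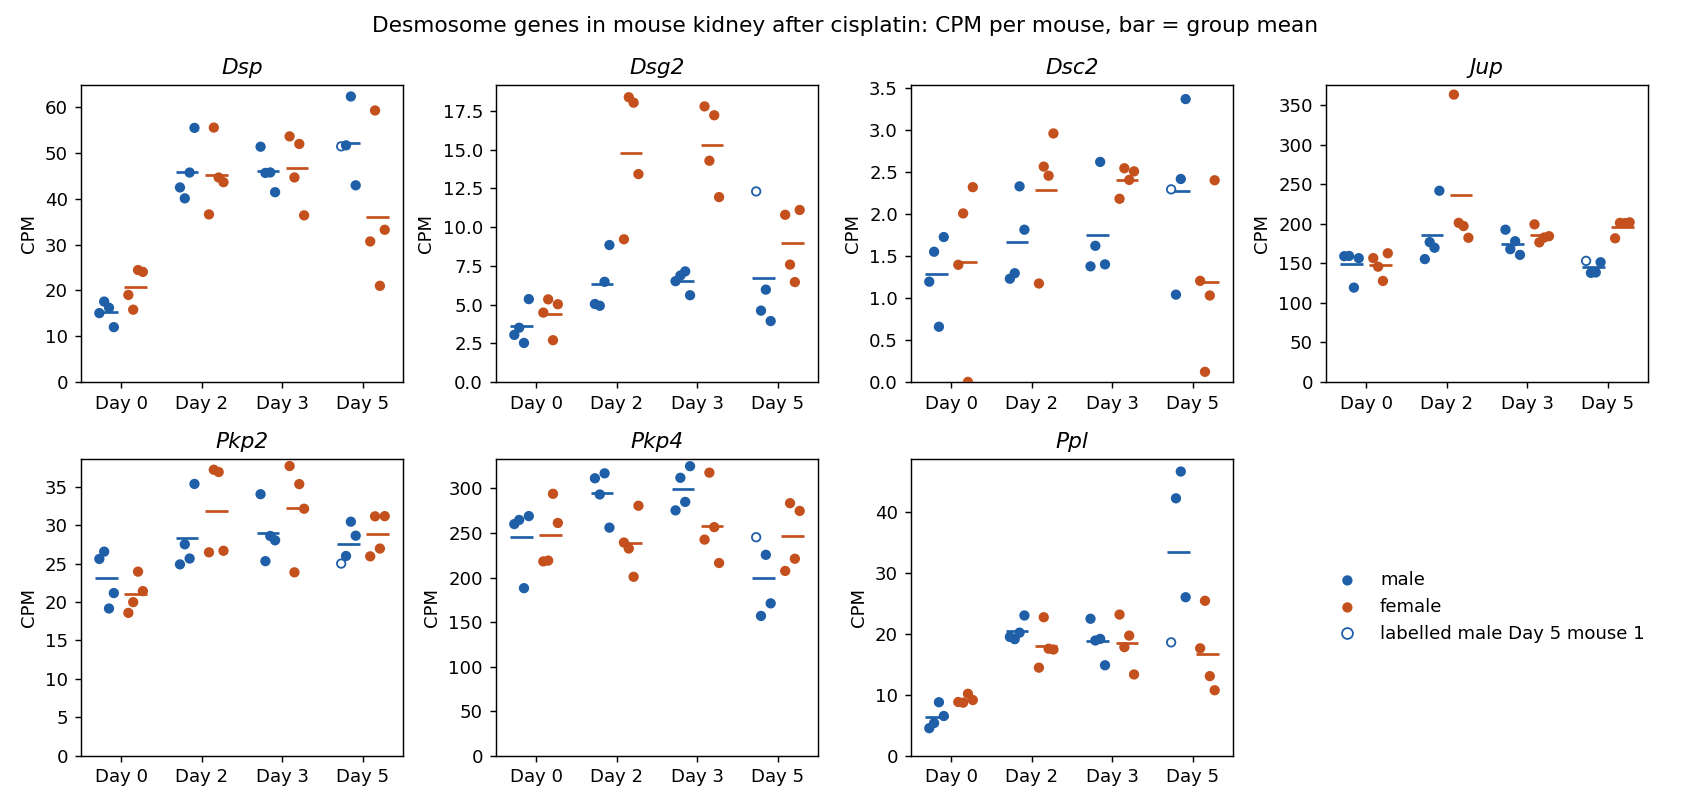
CPM of the 7 desmosome genes (vertical axis, from 0) in each of the 32 mice by day and sex, with bars at the group means and an open circle for the library labelled male Day 5 mouse 1. Dsg2 lies between 5.60 and 7.14 CPM in male and between 11.9 and 17.8 CPM in female Day 3 mice.

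Dsg2 lies at chr18:20558074-20604521 on the forward strand and Dsc2 at chr18:20030633-20059554 on the reverse strand, in the cluster of desmosomal cadherin genes. Dsg2 stood at 3.04, 3.50, 2.52 and 5.35 CPM in the 4 male Day 0 mice and at 4.48, 5.33, 2.69 and 5.02 CPM in the 4 female Day 0 mice. At Day 2 it stood at 5.03, 4.92, 6.47 and 8.84 CPM in male and at 9.22, 18.4, 18.04 and 13.4 CPM in female mice. At Day 3 the values were 6.51, 6.87, 7.14 and 5.60 CPM in male and 17.8, 14.3, 17.2 and 11.9 CPM in female mice. All female Day 2 and Day 3 mice thus lay above all female Day 0 mice, and the male Day 3 mice lay narrowly above all male Day 0 mice, while the male Day 2 mice overlapped with them.

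At Day 5, Dsg2 stood at 12.3, 4.61, 5.96 and 3.93 CPM in male mice, the first value being that of the library labelled male Day 5 mouse 1, and at 10.8, 7.58, 6.45 and 11.1 CPM in female mice. The other 3 male Day 5 mice were within or just above the range of male Day 0, and the female Day 5 mice lay between those of Day 0 and Day 3 without overlap. The fitted log2 difference of Dsg2 from Day 0 was 0.82, 0.86 and 0.97 at Day 2, Day 3 and Day 5 in male mice (standard errors 0.31, 0.25 and 0.42) and 1.75, 1.79 and 1.03 in female mice (standard errors 0.31, 0.26 and 0.32). Without the library labelled male Day 5 mouse 1, the male Day 5 value of Dsg2 was 0.50 (standard error 0.37). The antisense gene Gm16090 overlaps Dsg2, and had between 0 and 13 counts per library against 28 to 796 for Dsg2.

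Dsc2, the partner cadherin, was the least abundant member, with between 0 and 114 counts per library. It ranged from 0.657 to 1.73 CPM in male and from 0 to 2.32 CPM in female Day 0 mice, from 1.23 to 2.33 and from 1.17 to 2.96 at Day 2, and from 1.38 to 2.62 and from 2.18 to 2.55 at Day 3. At Day 5 its range was 1.04 to 3.37 CPM in male and 0.120 to 2.40 CPM in female mice. The ranges overlapped between every later day and Day 0 in both sexes. A single female Day 0 mouse had 0 counts, which allow up to 3, and female Day 5 mouse 2 stood at 0.120 CPM. The standard errors of the fitted differences of Dsc2 from Day 0 were 0.79, 0.80 and 1.01 in female mice, and 0.38, 0.25 and 0.66 without the Day 0 mouse at 0, beside 0.39 to 0.50 in male mice.

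The armadillo genes differed from Day 0 by less than Dsp, with fitted log2 differences between -0.23 and 0.67. Jup stood between 119 and 159 CPM in male and between 128 and 163 CPM in female Day 0 mice, and between 161 and 193 and between 176 and 199 CPM at Day 3. A single female Day 2 mouse stood at 363 CPM, against 182 to 201 CPM in the other 3 female mice of that day. In female mice all values of Jup after cisplatin lay above those of Day 0, with fitted log2 differences of 0.67, 0.31 and 0.41 at Day 2, Day 3 and Day 5, and of 0.38 at Day 2 without the mouse at 363 CPM. Male Jup was above Day 0 without overlap at Day 3 alone, and at Day 5, with 138 to 153 CPM, it was back within the Day 0 range.

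Pkp2 lies at chr16:16213318-16272712 on the forward strand. It ranged from 19.2 to 26.6 CPM in male and from 18.6 to 24.0 CPM in female Day 0 mice, and over the later days from 24.9 to 35.4 CPM in male and from 23.9 to 37.7 CPM in female mice. Its fitted log2 differences from Day 0 lay between 0.31 and 0.33 in male mice and between 0.46 and 0.61 in female mice, with standard errors of 0.14 to 0.21. Female Pkp2 values of Day 2 and of Day 5 did not overlap with Day 0, and those of Day 3 did.

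Pkp4, the most abundant member, stood between 188 and 269 CPM in male Day 0 mice, between 256 and 317 CPM at Day 2 and between 275 and 325 CPM at Day 3. At Day 5 it was at 245 CPM in the library labelled male Day 5 mouse 1 and at 157, 225 and 171 CPM in the other 3. In female mice Pkp4 ranged from 201 to 318 CPM over all days, and its fitted log2 differences from Day 0 were between -0.06 and 0.04. Male and female mice overlapped at each day.

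The plakin genes Dsp and Ppl were the members furthest above Day 0 in male mice and came after Dsg2 in female mice. Dsp had 15.0, 17.6, 16.2 and 12.0 CPM in male and 19.0, 15.8, 24.4 and 24.0 CPM in female Day 0 mice. At Day 2 the values were 42.5, 40.1, 45.7 and 55.5 CPM in male and 36.6, 55.6, 44.7 and 43.6 CPM in female mice, and at Day 3 they were 51.4, 45.7, 45.8 and 41.5 CPM and 53.6, 44.7, 52.0 and 36.4 CPM. Every one of these 16 mice lay above every Day 0 mouse.

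At Day 5 Dsp stood at 51.5, 51.7, 62.4 and 43.0 CPM in male mice, all above Day 0, and at 30.7, 59.3, 21.0 and 33.2 CPM in female mice, of which 1 lay within the Day 0 range. The mouse at 59.3 CPM, female Day 5 mouse 2, is the female whose mitochondrial transcripts took 77.9% of the counts. Fitted log2 differences of Dsp from Day 0 were 1.61, 1.60 and 1.84 in male mice (standard errors 0.17, 0.14 and 0.20) and 1.11, 1.15 and 0.80 in female mice (standard errors 0.23, 0.20 and 0.32). Leaving out the library labelled male Day 5 mouse 1 gave 1.86 for Dsp in male mice at Day 5, and leaving out female Day 5 mouse 2 gave 0.43 in female mice. The gene Gm10129, on the other strand within Dsp, had at most 37 counts against 208 to 2405 for Dsp.

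Ppl lies at chr16:5086291-5132421 on the reverse strand. It stood at 4.50, 5.35, 8.76 and 6.50 CPM in male and at 8.79, 8.69, 10.1 and 9.12 CPM in female Day 0 mice. The Day 2 values were 19.5, 19.1, 20.2 and 23.0 CPM in male and 14.4, 22.7, 17.5 and 17.4 CPM in female mice, and those of Day 3 were 22.4, 18.9, 19.1 and 14.8 CPM and 23.1, 17.8, 19.7 and 13.3 CPM. As for Dsp, no mouse of Day 2 or Day 3 overlapped with Day 0 of the same sex.

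Ppl was highest in male mice of Day 5. It stood at 18.6 CPM in the library labelled male Day 5 mouse 1 and at 42.2, 46.6 and 26.0 CPM in the other 3 male mice, beside 17.6, 25.4, 13.04 and 10.7 CPM in the 4 female mice. Its fitted log2 difference from Day 0 was 1.70, 1.57 and 2.46 in male mice (standard errors 0.22, 0.23 and 0.35) and 0.97, 0.995 and 0.86 in female mice (standard errors 0.22, 0.20 and 0.29), and without the library in doubt it was 2.68 in male mice at Day 5. Mitochondrial transcripts took 42.5% of the counts in the library in doubt, 78.9%, 79.8% and 79.7% in the other 3 male Day 5 mice and 77.9% in the female Day 5 mouse with the most Ppl (25.4 CPM), and their part in these values was not tested.

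Markers of other cells were high in some male Day 5 mice. The summed level of 9 urothelial markers, among them uroplakins and Krt5, was 40.0 CPM in the library labelled male Day 5 mouse 1 and between 103 and 184 CPM in the other 3 male Day 5 mice. It lay between 25.9 and 60.2 CPM in female Day 5 mice and between 24.4 and 117 CPM in male mice of Day 2 and Day 3. The 7 leukocyte markers summed to 16.2 CPM in the library in doubt and to between 49.4 and 110 CPM in the other 3, against 10.2 to 26.6 CPM in female Day 5 mice. The 8 proximal tubule markers summed to 7659 CPM in the library in doubt and to between 1360 and 5449 CPM in the other 3, which overlaps with the 3994 to 8930 CPM of female Day 5 mice. The 7 collecting duct markers summed to 1134 CPM in the library in doubt and to 1640 to 1801 CPM in the other 3, against 874 to 1157 CPM in female Day 5 and 567 to 1042 CPM in male Day 0 mice. The 6 endothelial markers summed to 243 CPM and to 396 to 583 CPM, against 207 to 313 CPM in female Day 5 mice. The 4 markers of the thick ascending limb summed to 2153 CPM in the library in doubt and to 420 to 1133 CPM in the other 3. Those 3 lay below the 1391 to 1878 CPM of female Day 5 mice. No marker of these lists was at 0 in a group, and their part in the levels of Ppl and Dsp was not tested.

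**Figure D2:**
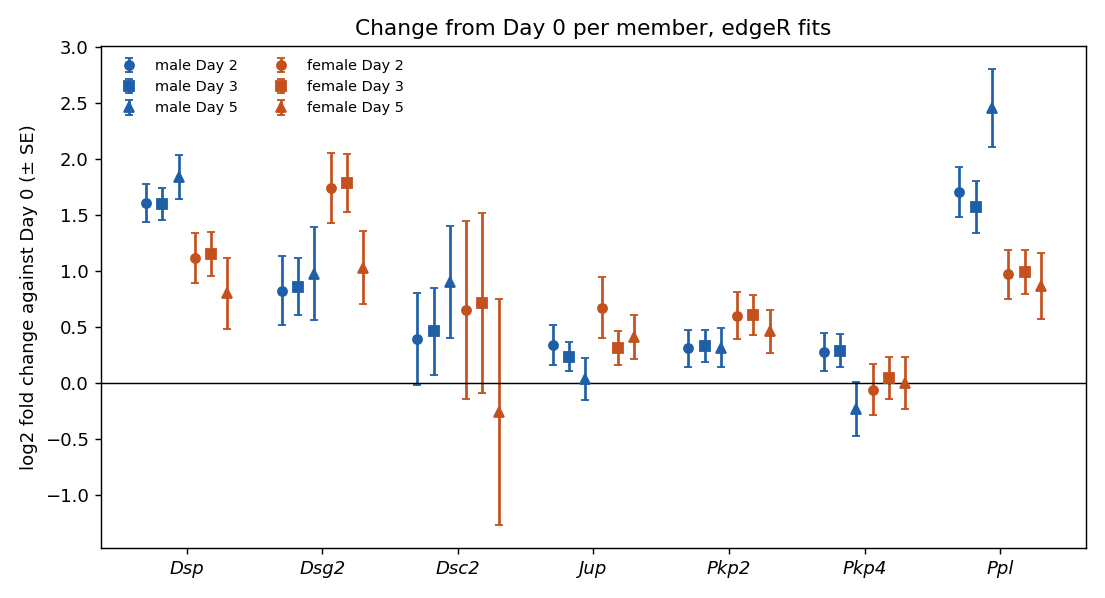
Fitted log2 fold change from Day 0 (vertical axis, ± standard error) of each desmosome gene in male and female mice at Day 2, Day 3 and Day 5, from edgeR fits on 4 mice per group. Dsp and Ppl lie higher in male than in female mice at each day and Dsg2 lies higher in female mice, while Pkp4 lies between -0.23 and 0.29.

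By the quasi-likelihood test of edgeR, with p-values adjusted over all genes tested (Benjamini-Hochberg), the members called against Day 0 in male mice were 2 of 7 at Day 2, 3 at Day 3 and 2 at Day 5, and 2 at Day 5 without the library labelled male Day 5 mouse 1. The same fits called 3.16% of 16051, 24.5% of 15908 and 19.2% of 14969 genes. In female mice 3 members were called at Day 2 and at Day 3, where 1.93% of 16541 and 5.54% of 17065 genes were called. At Day 5, 0 of 7 were called in female mice, where 0.258% of 16260 genes were, with 4 members at an unadjusted p under 0.05 and 0 called by the DESeq2 Wald test. Since these contrasts chose the members, nothing is read from these counts, which moved between 1 and 3 in male Day 2, 0 and 3 in female Day 2 and 0 and 4 in female Day 3 mice when 1 mouse was left out. The counts over all genes moved further in those fits, from 13 to 2306, from 669 to 6220 and from 832 to 3951 genes in male Day 2, Day 3 and Day 5 mice and from 21 to 4776, from 0 to 6774 and from 8 to 2082 in female mice, with the highest female count on each day without female Day 0 mouse 4. The median log2 difference over the 7 members lay between 0.39 and 0.90, beside 0.02 to 0.04 over all genes tested.

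Between the sexes, Dsg2 was the member that differed. At Day 3 all 4 male mice lay below all 4 female mice, with means of 6.53 ± 0.672 and 15.3 ± 2.72 CPM (SD, n = 4 each). The log2 fold change of male against female mice was -1.26 (standard error 0.14, adjusted p = 0.000613, edgeR), and 21.3% of 16673 genes were called in this comparison, against 180 genes, Dsg2 among them, in 1 fit over all 8 groups. The call held in each of the 8 edgeR fits that left out 1 mouse (-1.36 to -1.18, adjusted p from 0.000189 to 0.0039). The Day 3 mice are among those whose rise chose Dsg2, so this comparison shares mice with that choice.

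At Day 2 the groups again did not overlap for Dsg2, with means of 6.32 ± 1.83 CPM in male and 14.8 ± 4.34 CPM in female mice (SD, n = 4 each) and a log2 fold change of -1.25 (standard error 0.26, edgeR adjusted p = 0.0492), where 1.47% of 16608 genes were called. This call was narrow. The adjusted p of edgeR was 0.163, 0.125 and 0.13 without male Day 2 mouse 1, 2 or 3 and 0.134, 0.139 and 0.0757 without female Day 2 mouse 2, 3 or 4, for Dsg2 log2 fold changes that stayed between -1.44 and -1.12. The DESeq2 Wald test gave -1.25 for Dsg2 (adjusted p = 0.000438).

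Before injection Dsg2 did not separate the sexes, at 3.60 ± 1.23 CPM in male and 4.38 ± 1.18 CPM in female mice (SD, n = 4 each). At Day 0 edgeR called 0 of the 7 members, and 0.449% of 16042 genes, with 0 members at an unadjusted p under 0.05 and 0 called by DESeq2. The log2 fold change of Dsg2 was -0.30 (standard error 0.35, edgeR adjusted p = 0.929), and the largest sizes among the members at Day 0 were -0.56 for Ppl and -0.47 for Dsp.

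Some tubule markers also differed between the sexes. Summed over the list, the 8 proximal tubule markers stood at 14527 to 22937 CPM in male and 4189 to 12206 CPM in female Day 3 mice, and overlapped at Day 2 (10704 to 21875 and 5464 to 11823 CPM). Much of the Day 3 sum was Kap, a kidney androgen-regulated protein, at 8161 to 14162 CPM in male and 1208 to 5288 CPM in female mice, and Slc22a6, Slc5a12 and Aqp1 were also higher in male mice without overlap (731 to 836 against 257 to 295, 208 to 235 against 116 to 184 and 940 to 1004 against 494 to 830 CPM). Slc34a1, Lrp2, Cubn and Slc5a2 overlapped between the sexes at Day 3. The 6 injured tubule markers summed to 488 to 1296 CPM in male and 1163 to 5208 CPM in female Day 3 mice, most of it Spp1 (470 to 1184 and 1134 to 4835 CPM). They overlapped at Day 2 (369 to 1027 and 760 to 2053 CPM), but not at Day 0 (442 to 635 and 1133 to 1667 CPM), where Dsg2 did overlap. Havcr1 of this list overlapped at Day 0 (0.230 to 1.85 CPM in male and 0.0270 to 1.67 CPM in female mice) and at Day 2 and stood at 1.44 to 3.34 and 3.84 to 72.9 CPM at Day 3. The 7 collecting duct markers stood at 682 to 769 CPM in male and 894 to 1057 CPM in female Day 3 mice and overlapped at Day 2. Among them 2 of 7 were higher in female mice without overlap at Day 2, 5 at Day 3 and 0 at Day 0. Scnn1g, which encodes a subunit of the epithelial sodium channel, was among them on both days, at 22.3 to 36.9 against 38.7 to 45.8 CPM at Day 2 and 20.6 to 24.8 against 38.7 to 43.1 CPM at Day 3, with 16.4 to 28.6 and 17.5 to 30.8 CPM at Day 0. Atp6v1b1 separated at Day 2 alone (66.6 to 72.3 against 77.6 to 96.8 CPM). The 4 markers of the thick ascending limb overlapped as a sum on each of these days, but Cldn16, a tight junction protein of that segment, was higher in female mice without overlap at Day 2 (4.48 to 7.66 against 10.5 to 12.3 CPM) and Day 3 (5.83 to 7.90 against 9.09 to 15.99 CPM) and overlapped at Day 0 (1.67 to 8.35 and 3.10 to 19.0 CPM). Umod, which encodes uromodulin, separated at Day 2 alone (1032 to 1190 against 1361 to 2019 CPM). The 9 urothelial markers summed to 24.4 to 30.4 CPM in male and 33.9 to 42.3 CPM in female Day 3 mice and overlapped at Day 0 and Day 2. The 6 endothelial markers summed to more in male than in female mice without overlap at Day 2 (308 to 385 against 211 to 301 CPM) and at Day 3 (315 to 338 against 209 to 287 CPM), and overlapped at Day 0 (247 to 285 and 254 to 287 CPM). The 7 leukocyte markers overlapped as a sum on each of these days. Adgre1 of this list was higher in male mice without overlap at Day 2 and Day 3, and Ptprc at Day 3. Of all genes, edgeR called 0.449%, 1.47% and 21.3% between the sexes at Day 0, Day 2 and Day 3. The share of all genes without overlap was not counted, so nothing is read from the counts of separated markers. No marker of these lists was at 0 in a group, and the part of these cells in the Dsg2 difference was not tested.

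At Day 5, 0 of the 7 members were called between the sexes by edgeR, where 0.276% of 15237 genes were, with 2 at an unadjusted p under 0.05 and 0 called by DESeq2. Ppl stood at 33.3 ± 13.2 CPM in male and 16.7 ± 6.46 CPM in female mice (SD, n = 4 each), a log2 fold change of 1.05 (standard error 0.35, edgeR adjusted p = 0.165). Without the library labelled male Day 5 mouse 1 it was 1.32 for Ppl (standard error 0.30, edgeR adjusted p = 0.0121) and -0.78 for Dsg2 (standard error 0.32, edgeR adjusted p = 0.115), against -0.35 for Dsg2 with it. The fit without that library called 2644 of 15562 genes, against 42 with it. Jup did not overlap between the sexes, at 138 to 153 CPM in male and 182 to 202 CPM in female mice, and the log2 fold change was -0.38 (standard error 0.17, edgeR adjusted p = 0.246), or -0.35 for Jup (adjusted p = 0.252, edgeR) without that library.

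**Figure D3:**
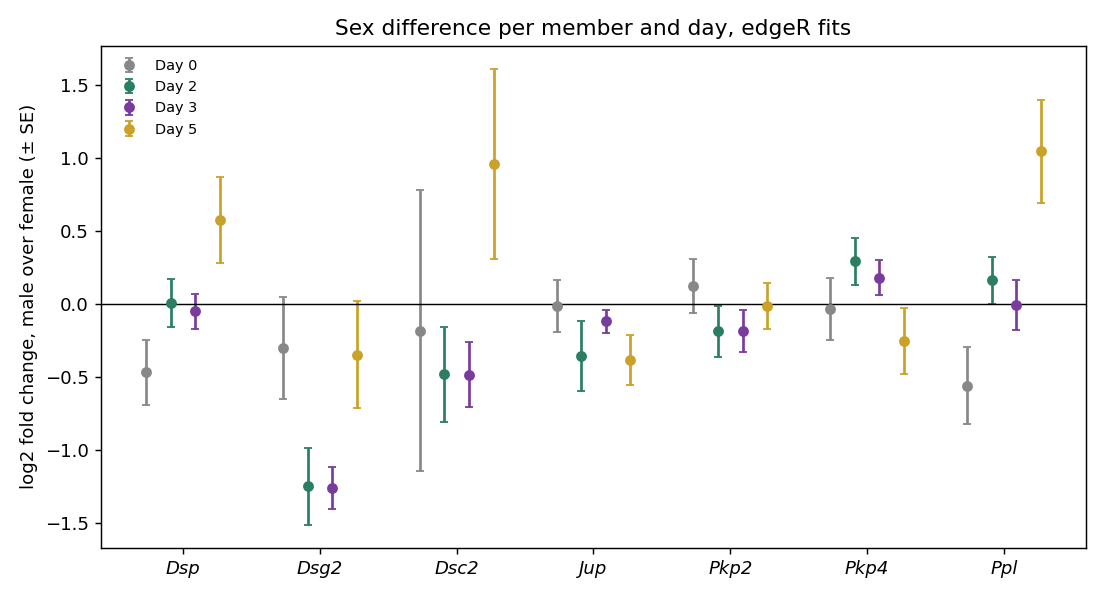
Log2 fold change of male against female mice (vertical axis, ± standard error) for each desmosome gene on each of the 4 days, from edgeR fits on 4 mice per group. Dsg2 lies at -1.25 at Day 2 and -1.26 at Day 3, and the Day 5 points include the library labelled male Day 5 mouse 1.

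Relative to Dsp of the same library, Dsg2 split the sexes in the same way. The FPKM of Dsg2 was 13.8% to 18.6% of that of Dsp in male and 29.4% to 47.2% in female Day 2 mice, and 14.8% to 18.2% against 37.4% to 38.8% at Day 3. The Day 0 ratios overlapped, at 18.2% to 52.2% in male and 12.9% to 39.5% in female mice. At Day 5 the ratio was 27.9% in the library labelled male Day 5 mouse 1 and 10.4%, 11.2% and 10.7% in the other male mice. Female Day 5 mice were at 41.1%, 14.9%, 35.9% and 39.0%. Relative to Jup, Dsg2 separated the sexes at Day 3 (2.63% to 3.19% in male and 5.04% to 7.34% in female mice) but not at Day 2 (2.17% to 2.97% and 1.97% to 7.13%). The value of 1.97% was that of female Day 2 mouse 1, whose Jup stood at 363 CPM. The other female Day 2 mice were at 7.12%, 7.13% and 5.73%.

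At Day 2 and Day 3 the ratio of Ppl to Dsp varied little. The FPKM of Ppl was 58.0% to 66.7% of that of Dsp in male and 55.0% to 57.2% in female Day 2 mice, and 50.1% to 61.2% and 51.2% to 60.4% at Day 3. It was 50.6% in the library labelled male Day 5 mouse 1 and 84.7% to 114% in the other 3 male Day 5 mice. It spread more widely in female Day 5 mice (45.2% to 87.0%) and at Day 0 (42.0% to 76.1% in male and 53.2% to 77.1% in female mice).

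**Figure D4:**
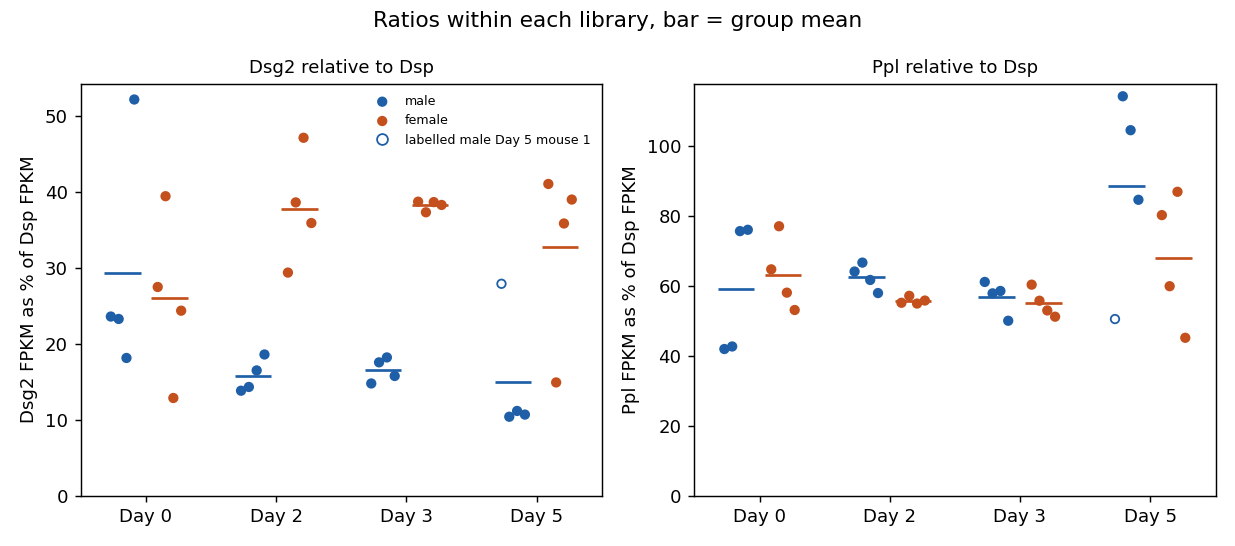
FPKM of Dsg2 (left) and of Ppl (right) as a percent of the FPKM of Dsp in the same library (vertical axes, from 0), by day and sex, with bars at the group means and an open circle for the library labelled male Day 5 mouse 1. Dsg2 lies between 14.8% and 18.2% in male and between 37.4% and 38.8% in female Day 3 mice, and the Day 0 groups overlap.

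Between the later days, which share mice with the contrasts that chose the members, few members differed. From Day 2 to Day 3 edgeR called 0 of 7 in either sex, as it called 0% of 16232 genes in male and 0% of 16974 genes in female mice. No member had an unadjusted p under 0.05 there, and DESeq2 called 0 of 7 in either sex. Over all genes 1410 in male and 678 in female mice had an unadjusted p under 0.05, and DESeq2 called 61 and 74.

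From Day 3 to Day 5 in male mice, where 37.9% of 15654 genes were called, Ppl rose from 18.8 ± 3.12 to 33.3 ± 13.2 CPM (SD, n = 4 each), a log2 fold change of 0.91 (standard error 0.28, edgeR adjusted p = 0.0314). Without the library labelled male Day 5 mouse 1 it was 1.09 for Ppl (adjusted p = 0.00122, edgeR). The call for Ppl was lost without male Day 3 mouse 2, 3 or 4 (edgeR adjusted p = 0.0735, 0.0717 and 0.0859) and without male Day 5 mouse 2 or 3 (0.0914 and 0.0815). Pkp4 stood at 299 ± 23.1 CPM at Day 3 and 200 ± 42.4 CPM at Day 5 without overlap, a log2 fold change of -0.50 (standard error 0.18) whose adjusted p of 0.0507 in edgeR missed the threshold. For Pkp4 it was -0.62 (edgeR adjusted p = 0.00537) without the library in doubt and -0.55 (adjusted p = 0.00805) by the DESeq2 Wald test.

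In female mice edgeR called 0 of 7 from Day 3 to Day 5 and 0% of 16794 genes, with 1 member and 1973 genes at an unadjusted p under 0.05, and DESeq2 called 0 members and 38 genes. Dsg2 stood at 15.3 ± 2.72 CPM at Day 3 and 8.98 ± 2.32 CPM at Day 5 (SD, n = 4 each). All 4 Day 5 mice lay below all 4 Day 3 mice, and the log2 fold change was -0.76 (standard error 0.21, edgeR adjusted p = 0.408).

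Whether the difference from Day 0 depended on sex was tested as an interaction, whose Day 0 contrasts are also those behind the choice of members. At Day 2 edgeR called 0 of 7 members and 0% of 17467 genes, with 2 members and 738 genes at an unadjusted p under 0.05, while DESeq2 called 0 members and 30 genes. At Day 3 it called 0 of 7 and 0.0114% of 17598 genes, with 1 member at an unadjusted p under 0.05 and 0 called by DESeq2. Dsg2 was among the members at an unadjusted p under 0.05 on both days. For Dsg2 the interaction, the male response less the female response, was -0.95 at both days (standard errors 0.44 and 0.36, edgeR adjusted p = 0.9999 and 0.581). The lower Dsg2 of male mice at Day 2 and Day 3 is thus not shown to be a difference in the response to cisplatin.

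At Day 5 edgeR called 0 of 7 in the interaction and 0.243% of 16907 genes, with 2 members at an unadjusted p under 0.05. The interaction was 1.60 for Ppl (standard error 0.44, edgeR adjusted p = 0.114) and 1.04 for Dsp (standard error 0.37, edgeR adjusted p = 0.201), or 1.05 for Dsp (adjusted p = 0.135) without the library in doubt. DESeq2 called 1 member, Ppl (1.62, adjusted p = 0.0346). Without the library labelled male Day 5 mouse 1 edgeR gave 1.80 for Ppl (adjusted p = 0.0142), and without female Day 5 mouse 2 it gave 1.39 for Dsp (adjusted p = 0.0422). These fits called 1173 of 17410 and 188 of 17283 genes, against 41 with all mice. The Day 0 contrasts in this interaction are also behind the choice of members, so these calls share values with that choice.

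The members did not vary as 1 group across libraries. Over the 32 libraries, Pearson's r of log2 CPM was 0.90 between Dsp and Ppl, 0.70 between Dsp and Pkp2, 0.63 between Dsg2 and Pkp2 and 0.57 between Dsg2 and Dsp, with a median of 0.21 over the 21 pairs. Pkp4 had an r between -0.15 and 0.14 with every other member. Once the 8 group means were removed, r was 0.59 between Dsp and Ppl and 0.51 between Dsg2 and Dsc2, with a median of 0.08. Without the Day 5 libraries, over 24 libraries, the r of Dsp and Ppl was 0.95 and the median over the pairs 0.45. Libraries share treatment, depth and tissue makeup, so these values describe the set and carry no p.

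Among 15045 protein-coding genes, the 5 whose log2 CPM followed Dsp most closely over the 32 libraries were Jag1 (r = 0.89), which encodes a ligand of Notch receptors, Lrrfip1 (0.88), Zbtb4 (0.88), a transcriptional repressor, Ptpn14 (0.88), a tyrosine phosphatase, and Rapgef5 (0.87). Ppl, a member and so not ranked, stood at 0.90. The 5 that followed Dsg2 were Scube3 (r = 0.87), a secreted protein, Ugt1a10 (0.87), a conjugating enzyme that shares exons with other Ugt1a genes, Dnajc5 (0.85), Mab21l3 (0.85) and Abcb1b (0.85), a drug efflux pump. No gene was among the closest 5 of both.

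Most of the other desmosome genes were scarce. Of the 11 genes in that list, 8 failed the filter on low counts in every comparison, apart from Pkp1 in female Day 3 against Day 2 mice. These were Dsg1a, Dsg1b, Dsg1c, Dsg3, Dsg4, Dsc1, Dsc3 and Pkp1, with at most 26 counts in any library (Pkp1) and 0 counts of Dsg4 in all 32. Pkp3, Perp and Evpl were tested throughout, with group means of 21.0 to 36.8 CPM for Pkp3 and 51.7 to 103 CPM for Perp. Evpl, which encodes envoplakin, the plakin partner of periplakin, and is named here after its values were seen, rose in male mice by a log2 fold change of 0.93 at Day 2 (standard error 0.13, edgeR adjusted p = 0.0207) and of 0.78 at Day 3 (standard error 0.11, adjusted p = 0.00598). With 1 mouse left out the Day 3 call of Evpl held in 8 of 8 fits and the Day 2 call in 3, and it was lost without male Day 0 mouse 1 or 2 or male Day 2 mouse 2, 3 or 4 (edgeR adjusted p up to 0.105). In male mice it went from 28.4 ± 1.05 CPM at Day 0 to 53.8 ± 6.07, 48.9 ± 5.37 and 31.2 ± 3.27 CPM at Day 2, Day 3 and Day 5 (SD, n = 4 each), and from Day 3 to Day 5 it fell by a log2 fold change of -0.56 (edgeR adjusted p = 0.00913), or of -0.62 (adjusted p = 0.00212) without the library in doubt.

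In female mice Evpl stood at 33.4 ± 9.04, 48.7 ± 11.3, 40.5 ± 3.74 and 45.3 ± 4.73 CPM over the 4 days (SD, n = 4 each), with no call. Perp, a p53 target that encodes a desmosome-associated membrane protein, had a log2 fold change from Day 0 of -0.19, -0.24 and -0.45 (-0.55 without the library in doubt) in male and of 0.81, 0.82 and 0.50 in female mice, none of them called. Its log2 fold change of male against female mice at Day 3 was -0.75 (standard error 0.23, edgeR adjusted p = 0.0516).

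Among intermediate filament genes and their linkers, the load-bearing partners of desmosomes, 11 of 11 were tested. Against Day 0 in male mice 0 were called by edgeR at Day 2 and at Day 3, and at Day 5 8 rose and 0 fell, among them the simple keratins Krt7 (log2 fold change 1.38), Krt18 (2.11) and Krt19 (2.45), with a median of 1.49 over the list beside 0.04 over all genes tested. Without the library labelled male Day 5 mouse 1 the count against Day 0 was again 8, with a median of 1.77 and values of 1.56 for Krt7, 2.37 for Krt18 and 2.77 for Krt19. Krt8, the usual partner of Krt18, was not called, with a log2 fold change of 0.34 (edgeR adjusted p = 0.326), or of 0.46 for Krt8 (adjusted p = 0.158) without that library. With 1 mouse left out, between 2 and 8 of the 11 rose at male Day 5, Krt7 and Krt18 in all 8 fits and Krt19 in 4, its call being lost without male Day 0 mouse 1 or 2 or male Day 5 mouse 2 or 3 (highest adjusted p = 0.0542, edgeR). From Day 3 to Day 5 in male mice 7 rose and 0 fell, where 37.9% of all genes were called. Without that library 9 rose and 0 fell, where 8814 of 15976 genes were called. In female mice 2 of the 11 rose at Day 3 (Krt20 and Eppk1) and 0 were called at Day 2 or Day 5. Both calls held in 2 of the 8 fits that left out 1 mouse, which dropped mouse 4 of Day 0 or mouse 2 of Day 3, and in 4 of the 8, which dropped mouse 1 or 3 of either day, no gene at all was called. Over all genes 3.16%, 24.5% and 19.2% were called against Day 0 in male mice at Day 2, Day 3 and Day 5, and 1.93%, 5.54% and 0.258% in female mice, and the counts of the lists that follow stand beside the same shares, which also moved with single mice as given above. Krt20 is also on the list of injured tubule markers. The male Day 5 mice are those with the high urothelial and leukocyte markers given above, whose part in the keratin values was not tested.

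Of the 15 adherens junction genes, 2 were called against Day 0 in male mice at Day 3, 1 higher and 1 lower, and 4 at Day 5, 2 higher and 2 lower, or 3 higher and 4 lower without the library labelled male Day 5 mouse 1. In female mice 1 was lower at Day 2 and 0 were called at Day 3 or Day 5. Cdh1, which encodes E-cadherin, had a log2 fold change from Day 0 of 0.20, 0.12 and 0.64 in male mice, of which the last passed (edgeR adjusted p = 0.0498), and of 0.51, 0.52 and 0.14 in female mice, none of which did. Without the library in doubt the male Day 5 value of Cdh1 was 0.65 (edgeR adjusted p = 0.039), and in each of the other 7 fits that left out 1 mouse the call was lost (adjusted p up to 0.126). Between the sexes at Day 3, 6 of the 15 passed, beside 21.3% of all genes, of which 1 was higher and 5 were lower in male mice, Cdh1 among the lower at -0.36 (standard error 0.08, edgeR adjusted p = 0.0112). Ctnnb1, which encodes beta-catenin, was not called against Day 0 (log2 fold changes from 0.15 to 1.28, standard errors from 0.58 to 0.73).

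Of 9 genes of hemidesmosomes and basal adhesion, the junctions toward the basement membrane, 8 were tested in male mice against Day 0, of which 1 rose at Day 2, 4 at Day 3 and 4 at Day 5, or 3 at Day 5, with 1 lower, without the library labelled male Day 5 mouse 1. In female mice 0 of 8 were called at Day 2, 1 of 9 rose at Day 3 and 0 of 8 were called at Day 5.

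The tight junction scaffold list had 9 of 9 genes tested. Of these 1 rose at Day 2, 3 at Day 3 and 3 at Day 5 in male mice and 1 at Day 2, 2 at Day 3 and 0 at Day 5 in female mice, and 0 fell, apart from 1 at male Day 5 without the library in doubt. Among 12 transcription factors of epithelial junctions, 2 rose at Day 3 in male mice (Grhl2 and Zeb2), and at Day 5 4 of 11 tested rose and 1 fell, or 4 rose and 2 fell without that library, while 0 of 12 were called in female mice on any day by edgeR. In each list the median log2 fold change from Day 0 of female mice at Day 3 lay between -0.16 and 0.79, beside 0.03 over all genes tested.

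The counts of these 4 lists against Day 0 depended on single mice. With 1 mouse left out, genes that rose in male mice at Day 3 numbered 0 to 4 for adherens junctions, 2 to 6 for hemidesmosomes, 1 to 3 for tight junction scaffolds and 0 to 3 for the transcription factors, where Grhl2 was called in 3 and Zeb2 in 2 of 8 fits. At male Day 5 they numbered 0 to 3, 3 to 4, 2 to 3 and 1 to 5, and at male Day 2 0, 0 to 4, 0 to 1 and 0 to 1. In female mice at Day 3 they numbered 0 to 4, 0 to 3, 0 to 5 and 0 to 5, at Day 2 0 to 3, 0 to 3, 0 to 5 and 0 to 5, and at Day 5 0 to 1, 0 to 1, 0 to 1 and 0. At least 6 of the 8 fits called no gene of a given list on a given day in female mice.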

How the data were processed

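RNA of 32 mouse kidneys, 4 mice in each of 8 groups, was sequenced as read pairs of 150 bases. Gene counts were deposited by the authors as whole numbers for 54532 genes with no normalisation, and HTSeq and DESeq2 are named in the submitters' processing notes. FPKM values, which divide by library size and gene length, were likewise deposited by the authors. The labels name GRCm39 and the study's methods name GRCm38. Positions of the members in the files are those of GRCm38 and are given as such. The strand setting of the counting is not given in the sources used here. Totals of 16502107 to 35961325 counts per library limit the precision for Dsc2 most, and limits from counts cover counting error only.

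Each comparison was fitted in edgeR 4.0.16 (R 4.3.3) on the libraries of its own groups, with filterByExpr, TMM factors and the quasi-likelihood test. Standard errors are the log2 fold change divided by the square root of F. An adjusted p (Benjamini-Hochberg, all genes tested) under 0.05 was called. Log2 CPM for correlations used a prior count of 2. DESeq2 1.42.0, other size factors, no filter, a replicate block, 1 fit over all groups, removal of 37 mitochondrial genes and leaving out each mouse were alternatives. The fits were tested on simulated data. Genes named beside the members were the 5 most like Dsp and the 5 most like Dsg2, list genes called in the same direction at Day 3 in both sexes, and Perp, Cdh1 and Ctnnb1. A result that this rule would name is not reported here. The members and lists were chosen with earlier results of these data known. Labels give 1 mouse per library.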

Additional observations from a re-analysis of the deposited data

Results flagged for a closer look

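Of the 56 sets of 4 mice checked (7 genes in 8 groups), 5 held a mouse far from the other 3 by Dixon's criterion on log2 CPM, and chance flags about 1 in 20. Dsc2 was at 0 CPM in female Day 0 mouse 3, beside 1.40 to 2.32 CPM in the others. Jup stood at 119 CPM in male Day 0 mouse 3, beside 156 to 159 CPM. Pkp4 stood at 188 CPM in the same mouse, beside 260 to 269 CPM. Jup stood at 363 CPM in female Day 2 mouse 1, beside 182 to 201 CPM. Jup stood at 182 CPM in female Day 5 mouse 1, beside 201 to 202 CPM, a gap that is wide only against the narrow range of the other 3.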

How the results depend on the processing

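Mouse numbers gave no consistent pairing of the mice (the lowest correlation of same-numbered mice lay between -0.415 and -0.0225 in the comparisons of 2 groups). Between the sexes at Day 0 the highest was 0.481, and there 3 of 4 mice correlated best with their own number, the most of any comparison. In that comparison a replicate block called 210 genes, against 72 without it, and 0 members. With the replicate block, members called were 0 in male Day 2, 1 in male Day 3, 0 in female Day 2 and 0 in female Day 3 mice against Day 0, 0 between the sexes at Day 2 (Dsg2 -1.23, adjusted p = 0.0826, edgeR) and 0 in male Day 5 against Day 3 (Ppl 0.84, adjusted p = 0.0556). In 1 fit over all 8 groups they were 5 in female Day 2 and 3 in female Day 5 mice against Day 0, 1 between the sexes at Day 5, 2 in male Day 5 against Day 3 and 2 in the Day 5 interaction. In the same order, that fit called 3976, 1994, 1766, 4688 and 1375 of 18220 genes. In male Day 5 against Day 3, 2 were called with DESeq2 size factors, by DESeq2 and without mitochondrial genes, and with no filter Ppl was at 0.81 (adjusted p = 0.0510, edgeR). DESeq2 called 1 in the Day 5 interaction.

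With 1 mouse left out, members called ranged from 1 to 3 (male Day 2) and from 0 to 3 and 0 to 4 (female Day 2 and Day 3) against Day 0, from 0 to 1 (Day 2), 1 to 3 (Day 3) and 0 to 1 (Day 5) between the sexes, from 0 to 2 in male Day 5 against Day 3 and from 0 to 1 in the Day 5 interaction. Over all genes those fits called 95 to 571, 1924 to 5770 and 0 to 2644 between the sexes at Day 2, Day 3 and Day 5. They called 3536 to 8814 genes in male Day 5 against Day 3 and 0 to 1173 in the Day 5 interaction. Dsg2 between the sexes at Day 2 ranged from -1.44 to -1.12 and Ppl in male Day 5 against Day 3 from 0.69 to 1.09. At Day 3, Dsc2 (-0.74) passed between the sexes without male Day 3 mouse 3, and Pkp2 (-0.30) and Pkp4 (0.30) without female Day 3 mouse 2. No value of a called member reversed under these alternatives. The causes were not tested.

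All-gene counts moved more. DESeq2 called 2871, 2151, 3472 and 713 genes in male Day 2 and female Day 2, Day 3 and Day 5 mice against Day 0, where edgeR called 507, 320, 945 and 42, and 399, 829 and 1053 between the sexes at Day 0, Day 2 and Day 5, where edgeR called 72, 244 and 42. In the interactions it called 30, 76 and 648, where edgeR called 0, 2 and 41. A fit over all 8 groups called 180 between the sexes at Day 3, where the fit of those groups called 3546. Against Day 0 it called 2347, 3560 and 5666 in male mice at Day 2, Day 3 and Day 5, beside 507, 3901 and 2878. In female mice it called 3976, 4268 and 1994, beside 320, 945 and 42. Between the sexes it called 586, 139 and 1766 at Day 0, Day 2 and Day 5, beside 72, 244 and 42. It called 4688 in male Day 5 against Day 3 and 1375 in the Day 5 interaction, beside 5940 and 41. The replicate block left 5 of 507 (male Day 2), 90 of 3901 (male Day 3) and 0 of 945 (female Day 3) by count. Depth limits Dsc2, with at most 114 counts.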
